A study of Rattus norvegicus with 29 samples.

Results

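The red cell miRNAs miR-451, miR-144 and miR-486 were followed in rat plasma drawn 48 h after a brain operation. Members were all names in the count table with one of these 3 stems, whichever arm of the hairpin they came from. The rule took 5 of 754 miRNAs: rno-miR-451-5p, rno-miR-451-3p, rno-miR-144-5p, rno-miR-144-3p and rno-miR-486, the last of which carries no arm in its name. 4 of them were listed with the rule, and miR-451-3p was added by it. All 5 passed the filter on low counts, as did 751 of the 754.

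The animals were 29 adult male Sprague-Dawley rats, each giving 1 plasma sample and 1 small RNA library. Lateral fluid-percussion injury, a pressure pulse onto the exposed dura that produces a severe traumatic brain injury (TBI), was given to 19 of them, and the other 10 (sham) were operated on in the same way but received no pulse. Video-EEG in the 7th month later divided the injured rats into 10 without epilepsy (TBI−) and 9 with epilepsy (TBI+), so these labels name an outcome that came after the blood was drawn. The work was done at UEF (12 rats: 4 sham, 4 TBI−, 4 TBI+), Monash (8 rats: 3, 3 and 2) and UCLA (9 rats: 3 of each). All rats were anaesthetised with isoflurane for the operation and again for the tail vein sample, which was taken into K2EDTA tubes and spun to plasma, and no unoperated rats were analysed here.

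miR-144 and miR-451 come from neighbouring hairpins on one primary transcript that the erythroid factor GATA1 switches on, and they rise steeply as red cells mature. The miR-451 hairpin is unusual in that its stem is too short for Dicer and is cut by an Argonaute protein instead, so that the mature miR-451-5p runs around the loop. Among their known targets are Nfe2l2 for miR-144, which encodes an activator of antioxidant genes, and Ywhaz for miR-451. miR-486 is made from within the gene of the red cell membrane protein ankyrin-1 and is also found in muscle. miR-451-5p, miR-144 and miR-486 are kept by the mature red cell, which has no nucleus. Plasma in which red cells have broken open contains more of them. The study therefore used miR-451a, which the count table calls miR-451-5p, against miR-23a, which changes little with hemolysis, as one check of sample quality. By that check the paper reported no hemolysis in any sample sent for sequencing. Its absorbance check put a few of the pooled samples slightly above the accepted limit.

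The mature sequences are given because the arms of miR-144 and miR-451 share a locus but not a seed. They are from the RefSeq miRNA table of build GRCr8, 5′ to 3′, with the seed (bases 2 to 8) in capitals. 4 of the 5 members had an entry, and miR-486 is named only.
miR-451-5p: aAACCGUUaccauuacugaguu
miR-451-3p: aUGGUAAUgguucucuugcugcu
miR-144-5p: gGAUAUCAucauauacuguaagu
miR-144-3p: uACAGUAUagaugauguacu
No other of the 693 mature miRNAs in the table had the same bases 2 to 8 as any of these 4. Over bases 2 to 7 alone, miR-144-3p matched miR-101a-3p and miR-101b-3p, and miR-451-3p matched miR-1193-5p.

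Both hairpins lay on the plus strand of chromosome 10 in GRCr8, Mir144 at chr10:63459397-63459479 and Mir451a at chr10:63459569-63459640, with 89 bases between them. They are shown with the mature arms in capitals, since the place of the arms differs between them.
Mir144: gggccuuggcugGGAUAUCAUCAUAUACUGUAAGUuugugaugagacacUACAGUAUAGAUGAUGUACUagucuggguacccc
Mir451a: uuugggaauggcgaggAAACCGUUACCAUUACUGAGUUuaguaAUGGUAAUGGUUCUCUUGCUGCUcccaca
In Mir451a, counted from the 5′ end of the hairpin, miR-451-5p took positions 17 to 38 and miR-451-3p positions 44 to 66, with 5 bases between them.

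The 5 members held very different amounts of the plasma pool. Sums of miRNA counts ran from 1162307 to 5223469 per rat, with a median of 2713557. miR-486 made up 12.9% ± 5.21 of all miRNA counts (SD, n = 29) and ranged from 1.53% to 23.8%. It was the most abundant miRNA in 6 rats and ranked no lower than 9 in any. miR-451-5p followed at 0.183% ± 0.0966, with ranks from 37 to 82 in the 29 rats. The other members were rare. miR-144-5p held 0.00948% ± 0.00461 of counts, miR-144-3p 0.00575% ± 0.00200 and miR-451-3p 0.00388% ± 0.00145. Of the counts of all 5 members, miR-486 accounted for 98.3% ± 0.689, so any sum over the members is in effect a reading of miR-486.

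Counting error was small beside the differences between rats for the abundant members. In the rat with the largest share of miR-486, UCLA TBI− 3, 23.8% of counts had a Wilson 95% interval of 23.8% to 23.9%. For the rare members it mattered more: the lowest count was 41, for miR-451-3p in UEF sham 3, a share of 0.000785% with an interval of 0.000579% to 0.00106%. Such intervals cover counting error alone. Between rats at a given level, the biological coefficient of variation estimated by edgeR was 0.596 for miR-451-5p, 0.550 for miR-144-5p, 0.412 for miR-144-3p, 0.401 for miR-486 and 0.274 for miR-451-3p, beside a common value of 0.475 over all miRNAs. miR-451-5p was thus the most variable of the 5 and its own other arm the least.

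Other sources of plasma miRNA differed between the groups and sites, and their part in the results was not tested. 3 liver miRNAs (miR-122-5p, miR-192-5p and miR-802-5p) made up 42.4% ± 11.3 of counts in UEF sham rats (n = 4), 10.2% ± 7.44 in UEF TBI rats (n = 8) and 2.01% ± 0.700 at UCLA (n = 9), and their highest summed share was 57.5%. In TBI against sham, edgeR called 9 of 751 miRNAs (1.2%) over all sites and 29 (3.86%) at UEF, in either direction. Of the 3 liver miRNAs, 2 were lower in TBI rats over all sites and all 3 at UEF (edgeR adjusted p below 0.05). Levels are therefore compared as TMM-scaled CPM, a scaling of counts by library size that sets aside the few miRNAs that move most. 6 platelet and white cell miRNAs held 8.22% ± 3.12 in sham (n = 10) and 9.69% ± 2.30 in TBI rats (n = 19), with 0 called by edgeR and 1 at an unadjusted p below 0.05. Over all sites 83 of 751 miRNAs had an unadjusted edgeR p below 0.05. Muscle matters for miR-486: 4 of 6 muscle miRNAs were tested, 0 were called in TBI against sham and 0 had an unadjusted p below 0.05 in edgeR, and their summed share ran from 0.0171% to 2.28% in sham and from 0.0209% to 3.23% in TBI rats. Of 5 brain miRNAs, 2 were higher in TBI rats over all sites (miR-128-3p and miR-129-5p) and 3 at UEF (these and miR-9a-5p). miR-128-3p, at 0.727% of counts, had a Spearman rho of log2 CPM of 0.741 with miR-451-5p and 0.669 with miR-486. miR-129-5p, at 0.00628% of counts, had 0.105 and 0.355.

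miR-486 was higher in injured rats at UEF, and the other members did not pass the test at any site. Over all sites, miR-486 stood at 86436 ± 42386 CPM in sham rats (n = 10; lowest 44191, median 67907, highest 157462) and at 151402 ± 56688 CPM in TBI rats (n = 19; lowest 81154, median 143089, highest 267686). The ranges overlapped, but each of the 19 TBI rats lay above the sham median. The same was true of 5 of the 751 miRNAs tested (0.666%), miR-486 included. In the edgeR model with site and condition the difference was 0.77 on the log2 scale (SE 0.22), with an adjusted p of 0.080 over 751 miRNAs.

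**Figure D1:**
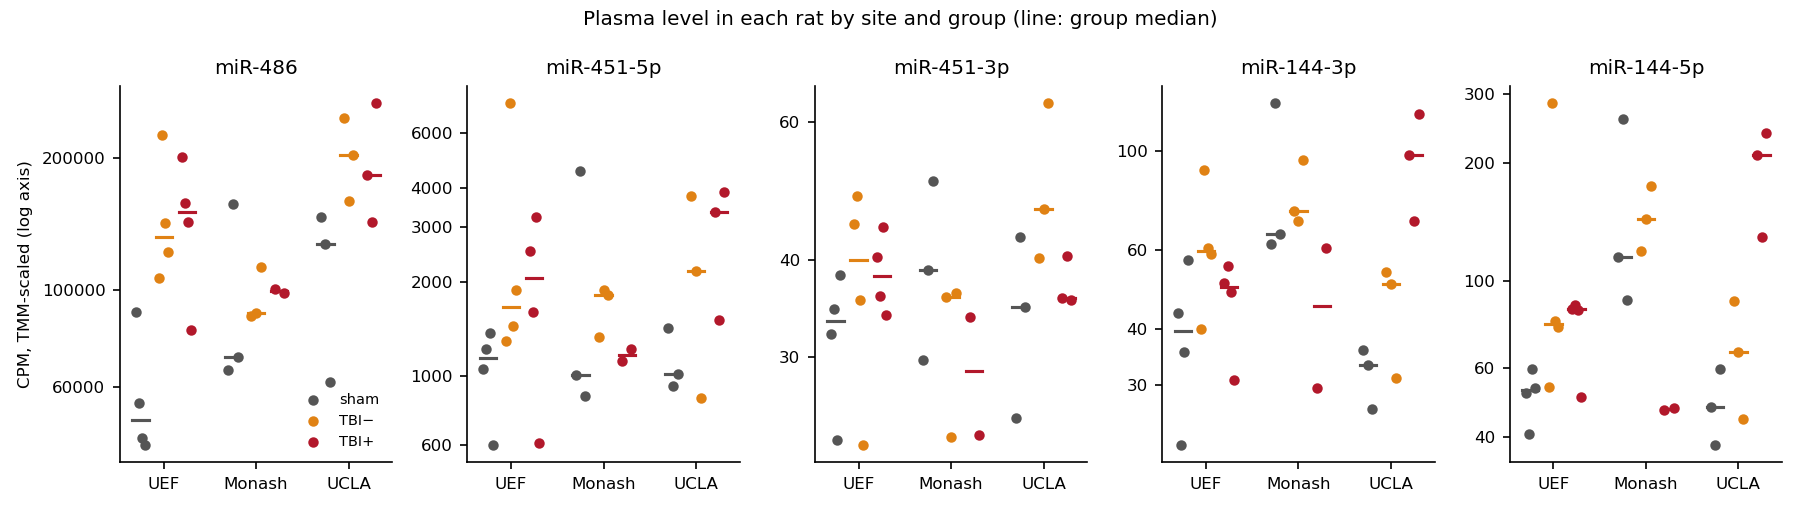
Level of each member in each rat, as TMM-scaled CPM on a log axis, by site and group (grey sham, orange TBI−, red TBI+; short lines are group medians). The UEF sham rats lie between 44191 CPM, the lowest miR-486 value of any rat, and 89271 CPM. 1 Monash sham rat stands above the rest of its group for miR-486, miR-451-5p and both arms of miR-144.

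The other 4 members gave smaller or less certain differences over all sites. miR-451-5p had 1403 ± 1126 CPM in sham (median 1033, range 600 to 4532) and 2266 ± 1591 in TBI rats (median 1815, range 612 to 7494), a log2 difference of 0.66 (SE 0.37, edgeR adjusted p = 0.551). miR-144-5p had 81.5 ± 66.9 CPM in sham and 111 ± 70.1 in TBI rats, a difference of 0.62 (SE 0.34, edgeR adjusted p = 0.551). For both, the SD within each group was as large as the distance between the group means or larger. miR-144-3p differed by 0.40 (SE 0.24, edgeR adjusted p = 0.607), and its TBI rats ran from 29.5 to 121 CPM inside a sham range of 22 to 128. miR-451-3p differed by 0.09 (SE 0.16, edgeR adjusted p = 0.912), with 23.6 to 50.4 CPM in sham and 23.2 to 63.4 CPM in TBI rats. Thus 0 of the 5 were called, against 9 of 751 miRNAs over all (1.2%), while all 5 estimates lay above 0 with a median of 0.62, beside 0.03 for all 751. An unadjusted edgeR p below 0.05 was found for 83 of all miRNAs, with miR-486 the 1 member among them. By DESeq2, 25 miRNAs were called, with miR-486 again the 1 member (0.75, adjusted p = 0.0224).

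At UEF, miR-486 stood at 89271, 55083, 45899 and 44191 CPM in the 4 sham rats and between 81154 and 226853 CPM in the 8 TBI rats, with a median of 142928. 7 of the 8 TBI rats lay above the highest sham rat. The ratio of the group means was 2.52, and the log2 difference of 1.34 (SE 0.31) passed the test (edgeR adjusted p = 0.00774). It also passed with each of the 29 rats left out in turn, at 1.22 to 1.70. Over all miRNAs 29 of 751 were called at UEF (3.86%), 10 of them higher in TBI rats. The share of counts, which uses no scaling, moved from 5.11% ± 3.17 in sham to 15.4% ± 2.18 in TBI rats. With miR-122-5p taken out of the total, it was 8.04% ± 3.91 and 17% ± 2.48.

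At the same site miR-451-5p had 1052, 1225, 1377 and 600 CPM in the sham rats. The 8 TBI rats ran from 612 to 7494 CPM, and 6 of them lay above the highest sham rat. Its log2 difference was 1.24, with a wider error than that of miR-486 (SE 0.52, edgeR adjusted p = 0.207). miR-144-5p was likewise above the highest sham rat (59.7 CPM) in 6 of 8 TBI rats, with a difference of 0.96 (SE 0.47, edgeR adjusted p = 0.309). miR-144-3p differed by 0.46 (SE 0.34) and miR-451-3p by 0.25 (SE 0.23), with edgeR adjusted p of 0.603 and 0.714.

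At Monash the groups lay closer together. miR-486 had 65521, 157462 and 70292 CPM in the 3 sham rats, and 87256, 88680, 113014, 100592 and 98632 CPM in the 5 TBI rats. The TBI rats sat close together between the second and the highest sham rat, and the log2 difference was −0.00 (SE 0.35, edgeR adjusted p = 0.999). The estimates for the other members were all below 0, at −0.53 (SE 0.58) for miR-451-5p, −0.54 (SE 0.52) for miR-144-5p, −0.37 (SE 0.39) for miR-144-3p and −0.37 (SE 0.27) for miR-451-3p. No miRNA of 751 was called there by edgeR (0%), 56 had an unadjusted p below 0.05, and DESeq2 called 5, none of them a member.

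1 sham rat carried much of the Monash values. Monash sham 2 had 4532 CPM of miR-451-5p, where the other 2 sham rats had 1009 and 864, and it was also the highest Monash rat for miR-486, miR-144-3p and miR-144-5p. It was not the highest for miR-451-3p, at 38.8 CPM against 50.4 in Monash sham 3. Without it the Monash differences were 0.65 for miR-451-5p, 0.54 for miR-486, 0.06 for miR-144-3p and 0.03 for miR-144-5p, none of which passed the test. Over all sites, leaving it out gave 1.08 for miR-451-5p (edgeR adjusted p = 0.0483) and 0.97 for miR-486 (edgeR adjusted p = 0.00493), so that 2 members passed in place of 0, while the count over all miRNAs was 16 of 750 in place of 9 of 751. All other results include it.

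At UCLA the estimates were above 0 for all 5 members, without passing the test. miR-144-5p had 47.5, 38.0 and 59.7 CPM in the sham rats and from 44.5 to 239 CPM in the 6 TBI rats, of which 5 lay above the highest sham rat. Its log2 difference of 1.42 (SE 0.55) was the largest of any member at any site, and its edgeR adjusted p was 0.343. miR-451-5p differed by 1.21 (SE 0.60, edgeR adjusted p = 0.435), miR-144-3p by 1.15 (SE 0.40, edgeR adjusted p = 0.287) and miR-486 by 0.84 (SE 0.35, edgeR adjusted p = 0.354). For each of these 3, 5 of the 6 TBI rats were above the highest sham rat. miR-451-3p differed by 0.35 (SE 0.27, edgeR adjusted p = 0.603). 2 of 751 miRNAs were called at UCLA (0.266%), neither of them a member.

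**Figure D2:**
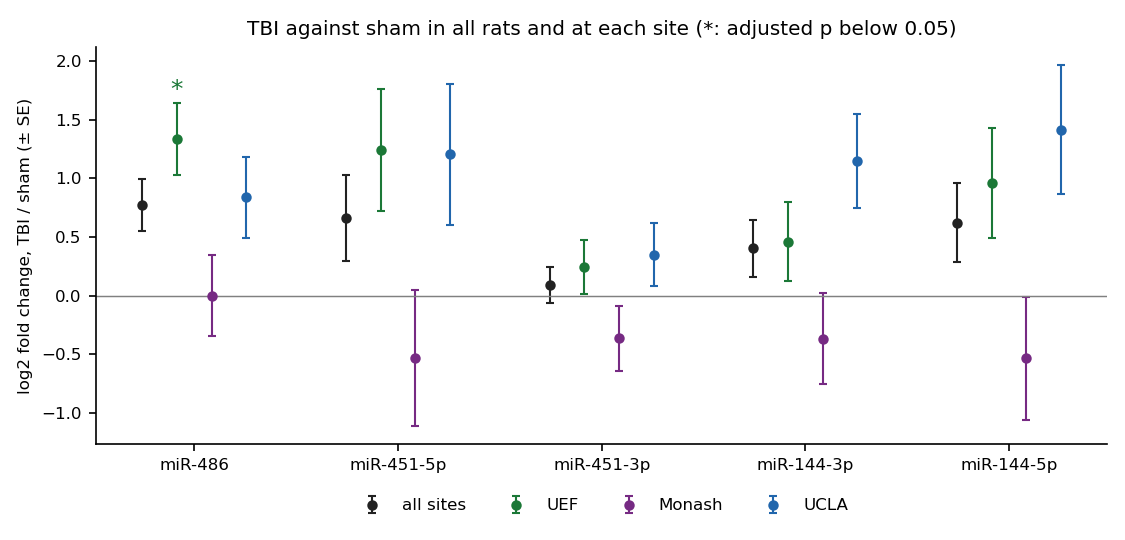
Log2 fold change of TBI over sham for each member, over all sites and at each site, with bars of 1 standard error from edgeR. miR-486 at UEF (1.34 ± 0.31) is the only value marked as past an adjusted p of 0.05, and the Monash estimates lie at or below 0 for all 5 members.

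Whether the effect of injury differed between sites was tested directly, as a site by injury term in edgeR. The adjusted p was 0.277 for miR-486, 0.330 for miR-144-3p, 0.330 for miR-144-5p, 0.366 for miR-451-5p and 0.459 for miR-451-3p. None of the 5 was called, while 8 of 751 miRNAs were (1.07%). The call of miR-486 at UEF is therefore not shown to be particular to that site.

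Ratios to miR-23a-3p within the same library need no scaling, and gave the same order of members. Unlike the edgeR model, the permutation test over all sites took no account of site. miR-23a-3p itself was at 9088 ± 3193 CPM in sham (n = 10) and 8806 ± 2726 CPM in TBI rats (n = 19). The log2 ratio of miR-486 was 3.18 ± 0.83 in sham and 4.08 ± 0.60 in TBI rats, a difference of 0.90 (two-sided permutation p = 0.00196). That of miR-451-5p was −2.86 ± 0.62 and −2.15 ± 0.61, a difference of 0.71 (two-sided permutation p = 0.00476). For miR-144-5p, miR-144-3p and miR-451-3p the differences were 0.52, 0.42 and 0.15 (two-sided permutation p = 0.0533, 0.104 and 0.577). An unadjusted permutation p below 0.05 was thus found for 2 of 5 members and for 58 of the 676 miRNAs with a count in every rat (8.58%). Adjusted over the 676, permutation p was 0.166 for miR-486 and 0.249 for miR-451-5p, and neither passed.

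Within the sites the ratio separated the groups most fully at UCLA. The log2 ratio of miR-144-5p was −7.45, −7.52 and −7.41 in the 3 sham rats and −6.92 to −5.67 in the 6 TBI rats. miR-451-5p and miR-144-3p likewise had each of the 6 TBI rats above each of the 3 sham rats. The mean differences were 1.24, 1.08 and 1.06 in that order, each with an exact permutation p of 0.0238, which is the smallest that 6 against 3 rats can give. Complete separation in this direction was found for 48 of 676 miRNAs at UCLA (7.1%), and an exact unadjusted permutation p below 0.05 for 68 (10.1%). Adjusted over all 676, the exact permutation p was 0.322 for the 3 members. The reference moved too: miR-23a-3p held 1.09% ± 0.206 of counts in UCLA sham and 0.744% ± 0.138 in UCLA TBI rats, although its CPM was 8485 ± 1607 and 8580 ± 2818.

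At UEF the ratio of miR-486 was higher by 1.35 in TBI rats (exact permutation p = 0.00808, adjusted 0.195) and that of miR-451-5p by 0.97 (exact permutation p = 0.0404, adjusted 0.408). 7 and 6 of the 8 TBI rats lay above the highest sham rat. Over all miRNAs, 70 of 676 had an exact permutation p below 0.05 there (10.4%). At Monash none of the 5 members did, with exact permutation p from 0.321 to 0.786, beside 10 of 676 miRNAs (1.48%). In all 29 rats miR-486 had more counts than miR-23a-3p and the other 4 members fewer.

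**Figure D3:**
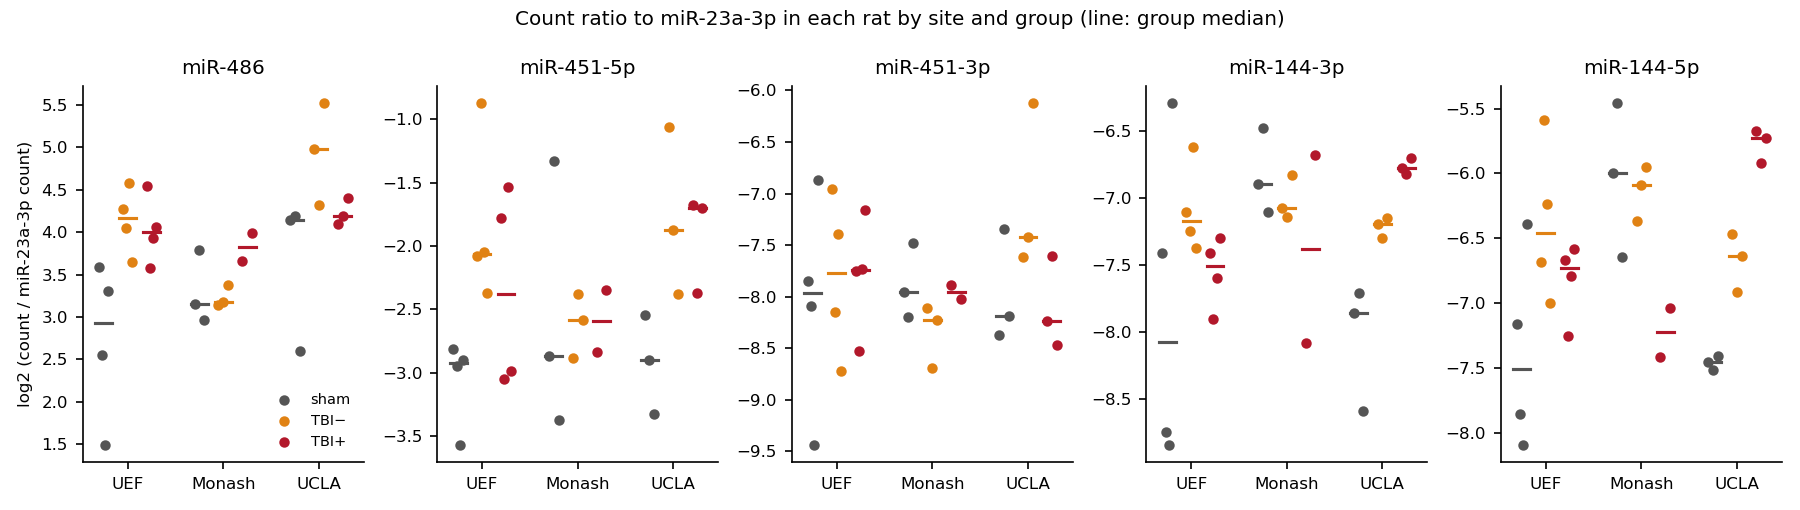
Log2 ratio of each member's count to that of miR-23a-3p in each rat, by site and group (grey sham, orange TBI−, red TBI+; short lines are group medians). At UCLA the 6 TBI rats lie above the 3 sham rats for miR-451-5p, miR-144-3p and miR-144-5p, while the Monash groups overlap.

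Later epilepsy did not separate the injured rats. TBI+ against TBI− gave log2 differences of 0.01 (SE 0.25) for miR-486, −0.19 (SE 0.41) for miR-451-5p, 0.03 (SE 0.39) for miR-144-5p, 0.08 (SE 0.28) for miR-144-3p and −0.14 (SE 0.18) for miR-451-3p, all with an edgeR adjusted p of 0.998. 0 of 751 miRNAs were called by edgeR (0%) and 0 by DESeq2, and 18 had an unadjusted edgeR p below 0.05. miR-486 stood at 149829 ± 57949 CPM in TBI− (n = 10, 87256 to 248103) and at 153150 ± 58704 CPM in TBI+ rats (n = 9, 81154 to 267686).

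For miR-144, values at Monash and UCLA lay in opposite directions. At UCLA, miR-144-5p was at 130, 210 and 239 CPM in TBI+ and at 89.0, 65.9 and 44.5 CPM in TBI− rats. At Monash it was at 46.7 and 47.3 CPM in TBI+ and at 120, 144 and 175 CPM in TBI− rats. miR-144-3p did the same, with 97.8, 69.6 and 121 against 53.7, 50.5 and 31.1 CPM at UCLA, and 29.5 and 60.7 against 73.4, 69.6 and 95.5 CPM at Monash. miR-451-5p was lower in TBI+ rats at Monash (1119 and 1225 against 1337, 1887 and 1815 CPM) but overlapped at UCLA. At UEF the outcome groups overlapped for both arms, with miR-144-5p at 53.5, 285, 79.0 and 76.2 CPM in TBI− and at 85.0, 87.0, 84.4 and 50.6 CPM in TBI+ rats. Without UEF TBI− 2, the rat at 285 CPM, the difference over all sites was 0.43 for miR-144-5p. Every TBI+ rat was above every TBI− rat at UCLA for 98 of 751 miRNAs (13%), every TBI+ rat was below every TBI− rat at Monash for 135 (18%), and both held for 51 (6.79%).

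The sites were not shown to differ in any member, beside 111 of 751 miRNAs called by the edgeR test of the 3 sites together (14.8%). The adjusted p was 0.0933 for miR-486, 0.207 for miR-144-3p, 0.335 for miR-144-5p, 0.625 for miR-451-3p and 0.977 for miR-451-5p. miR-486 was highest at UCLA, where it averaged 171292 ± 63024 CPM (n = 9) beside 118160 ± 59347 at UEF (n = 12) and 97681 ± 28766 at Monash (n = 8). The UEF minus UCLA difference was −0.58 (SE 0.24, edgeR adjusted p = 0.140) and the Monash minus UCLA difference −0.68 (SE 0.27, edgeR adjusted p = 0.156). 0 of 5 members were called in each pair, beside 70 of 751 miRNAs (9.32%) for UEF and UCLA, 41 (5.46%) for Monash and UCLA and 75 (9.99%) for UEF and Monash. Of the muscle miRNAs, rno-miR-1-3p and rno-miR-206-3p were lower at UCLA than at each other site (edgeR adjusted p from 0.00650 to 0.0409), and the summed muscle share was 0.0405% ± 0.0179 there (n = 9) beside 0.871% ± 1.20 at Monash (n = 8). The other 2 muscle miRNAs tested did not pass in either comparison, and the part of muscle in the miR-486 level was not tested.

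In the model of all rats, both arms of miR-144 had their highest estimate at Monash. miR-144-5p differed by −0.74 between UEF and Monash (SE 0.38, edgeR adjusted p = 0.20) and miR-144-3p by −0.63 (SE 0.27, edgeR adjusted p = 0.130). Fits of sham or TBI rats alone were alternatives to the model of all rats. In sham rats alone the miR-144-5p difference passed the test, with UEF below Monash by −1.62 (SE 0.38, edgeR adjusted p = 0.0194) and Monash above UCLA by 1.68 (SE 0.42, edgeR adjusted p = 0.0378). There 35 miRNAs were called for UEF against Monash and 21 for Monash against UCLA, with 1 member in each. In the model of all rats these pairs had 75 and 41 calls of 751 miRNAs, with 0 members in each. The sham values of miR-144-5p were 40.7 to 59.7 CPM at UEF, 38.0 to 59.7 at UCLA and 89.4, 115 and 260 at Monash. The value of 260 is that of Monash sham 2. Without that rat, the UEF minus Monash difference in the model of all rats was −0.44 for miR-144-5p. In TBI rats alone Monash was not above UCLA, with differences of −0.35 for miR-144-5p and −0.057 for miR-144-3p. In TBI rats alone it was miR-486 that differed, with Monash below UCLA by −0.996 (SE 0.24, edgeR adjusted p = 0.0223): the 5 Monash TBI rats lay between 87256 and 113014 CPM and the 6 UCLA TBI rats between 143089 and 267686. For that pair 23 miRNAs were called in TBI rats alone, miR-486 being the 1 member. The share of all miRNAs whose values separate the sites in these ways was not counted, so the separation is not shown to be particular to the members.

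The members fell into degrees of likeness when followed from rat to rat. All correlations below are of log2 CPM over 29 rats that differ in site and group, and all values of a rat share its library and its scaling. The arms of miR-144 moved most closely together, with a Spearman rho of 0.871 and a Pearson r of 0.891, both at the smallest permutation p that 100000 resamples can give, 2.00e-05. Without the 2 rats farthest from the median of miR-144-3p, r was 0.872. Taking the sites one at a time, rho was 0.706 for UEF, 0.952 for Monash and 0.883 for UCLA.

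miR-451-5p followed the miR-144 arms less closely, although their hairpins are neighbours. With miR-144-5p rho was 0.687 (permutation p = 0.000100, adjusted over 6 pairs 0.000200) and r was 0.742 (permutation p = 8.00e-05), or 0.621 without the 2 farthest rats. With miR-144-3p rho was 0.547 (permutation p = 0.00272, adjusted 0.00408) and r was 0.614 (permutation p = 0.000380), or 0.515 without 2 rats. This was the 1 relation lost when shares of counts replaced CPM, where rho was 0.338 (adjusted permutation p = 0.109). Within the sites the rho of miR-451-5p with miR-144-5p came to 0.874 (UEF), 0.786 (Monash) and 0.883 (UCLA), above the pooled value at each. It was 0.732 in the 19 TBI rats and 0.103 in the 10 sham rats, a difference that was not tested. For miR-451-5p with miR-144-3p, rho was 0.519 in the TBI rats and −0.0788 in the sham rats, likewise not tested against each other.

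miR-451-5p and miR-486 lie at separate loci and correlated about as strongly as miR-451-5p and miR-144-5p. Their rho was 0.691 and r was 0.697, both at the smallest permutation p of 2.00e-05, and r without the 2 farthest rats was 0.683. Among the UEF rats rho was 0.860, among the Monash rats 0.690 and among the UCLA rats 0.617. By group it was 0.693 in the TBI rats and 0.418 in the sham rats (permutation p = 0.00152 and 0.234), a difference that was not tested. miR-486 and miR-144 were more loosely tied. With miR-144-5p rho was 0.352 (permutation p = 0.0618, adjusted 0.0741) and r 0.432 (permutation p = 0.0173, adjusted 0.0208). With miR-144-3p rho was 0.302 (permutation p = 0.110) and r 0.414 (permutation p = 0.0253). Without the 2 farthest rats these r were 0.347 and 0.327 (permutation p = 0.0760 and 0.0950), so the p of r was below 0.05 only with those rats included. The rho of miR-486 with miR-144-5p was 0.860 in the UEF rats, 0.381 in the Monash rats and 0.5 in the UCLA rats.

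**Figure D4:**
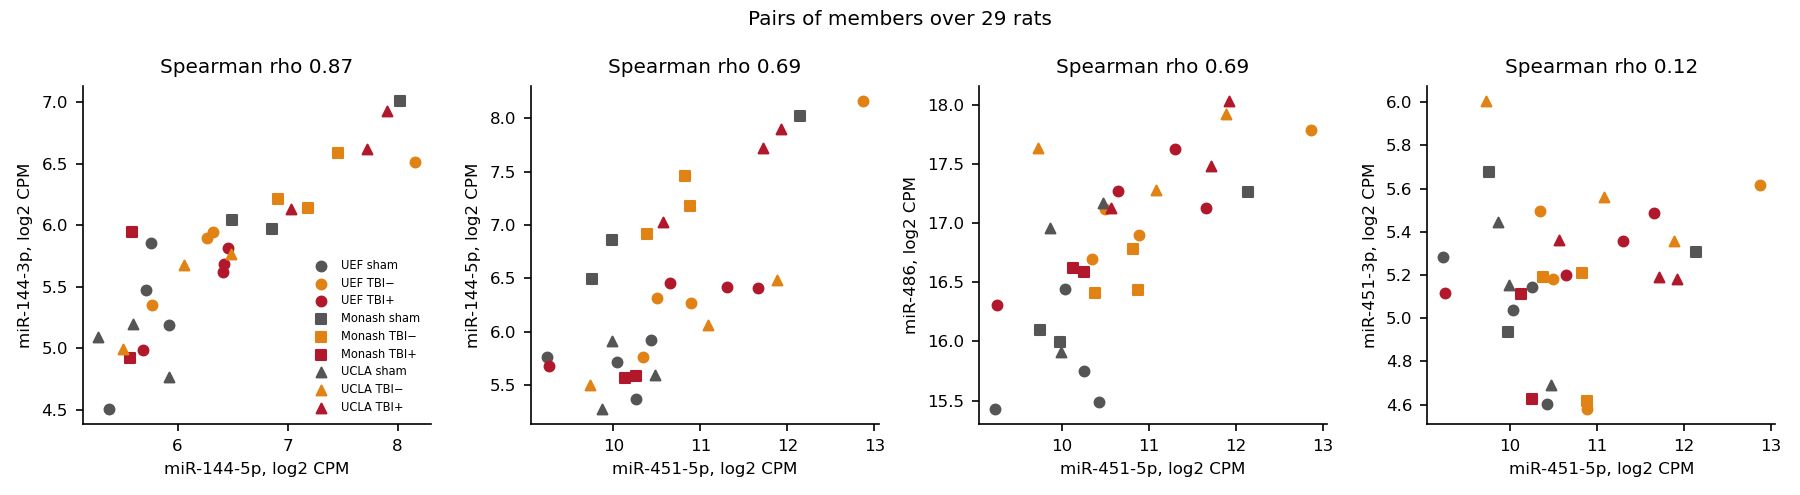
Log2 CPM of pairs of members in the 29 rats, with site as the symbol and group as the colour. The arms of miR-144 lie along a line (rho 0.87), miR-451-5p with miR-144-5p and with miR-486 scatter more (rho 0.69 each), and the 2 arms of miR-451 show little relation (rho 0.12).

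The 2 arms of miR-451 differed in level and in the way they varied between rats. miR-451-3p had a rho of 0.118 with miR-451-5p (permutation p = 0.542), 0.0966 with miR-144-3p (permutation p = 0.617) and 0.174 with miR-144-5p (permutation p = 0.367). Its rho with miR-486 was 0.454 (permutation p = 0.0138, adjusted over 4 pairs 0.0554). The count of miR-451-5p to that of miR-451-3p ran from 13.4 to 155 between rats, around a mean of 5.49 ± 0.91 on the log2 scale. In contrast, the count of miR-144-3p to that of miR-144-5p stayed between 0.317 and 1.28, with a mean of −0.66 ± 0.40 on the log2 scale, and was −0.59 ± 0.41 in sham and −0.70 ± 0.40 in TBI rats.

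Between loci, the ratios were wide. miR-451-5p had 30.4 times the counts of miR-144-3p on average (geometric mean, 10.5 to 82.8 over the rats) and 19.2 times those of miR-144-5p (8.75 to 42.5). miR-486 had 71.6 times those of miR-451-5p (30.3 to 240). By site, miR-451-5p to miR-144-5p was lowest at Monash, 3.80 ± 0.60 on the log2 scale, beside 4.45 ± 0.52 at UEF and 4.43 ± 0.60 at UCLA. The miR-486 to miR-451-5p ratio was 6.04 ± 0.66 in sham and 6.23 ± 0.63 in TBI rats, so the groups differed by less than the spread between rats.

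Among all 750 other miRNAs tested, those most like miR-451-5p over the rats were not its neighbours on the chromosome. The highest rho was with miR-25-3p (0.940), miR-106b-3p (0.929), miR-15b-5p (0.923), miR-93-5p (0.890) and miR-15a-5p (0.878). miR-486 ranked 30, miR-144-5p 32, miR-144-3p 79 and miR-451-3p 229 in that order. For miR-486 they were miR-18a-3p (0.920), miR-25-5p (0.918), miR-93-3p (0.873), miR-25-3p (0.807) and miR-423-3p (0.803), with miR-451-5p at rank 11. miR-25, miR-93 and miR-106b are made from one cluster, and miR-25-3p was the 1 miRNA among the 5 closest to both members. miR-93-5p was also close to both, with a rho of 0.754 with miR-486. miR-106b-5p of the same cluster was close to neither, with a rho of −0.17 with miR-451-5p and 0.17 with miR-486.

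For the miR-144 arms the order was different again. miR-144-3p was followed by miR-144-5p (0.871), miR-1-5p (0.819), miR-32-5p (0.767), miR-17-2-3p (0.759) and miR-19a-3p (0.740). Of these, miR-1-5p was scarce, with a mean log2 CPM of 2.38. Next to miR-144-5p after its own other arm came miR-191a-3p (0.865), let-7i-5p (0.813), miR-29b-3p (0.808) and miR-142-3p (0.807), the last of which is abundant in white cells. On log2 shares of counts, rho with miR-191a-3p was 0.439, at rank 52. There let-7i-5p, miR-29b-3p and miR-142-3p had 0.707, 0.760 and 0.719. miR-451-3p had no close match on log2 CPM. Its highest values were with miR-770-5p (0.647), miR-409b (0.541), miR-99a-3p (0.536), miR-501-3p (0.510) and miR-193b-3p (0.491), with miR-486 at rank 10 and miR-451-5p at rank 235. On log2 shares of counts the same 5 had higher rho, at 0.781, 0.799, 0.801, 0.564 and 0.661 in that order, so its likeness depended on the scaling.

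18 other miRNAs known to be abundant in red cells were all measured, and together they held 18.2% ± 6.59 of counts in sham and 23.6% ± 4.65 in TBI rats. These are shares of a total in which the 3 liver miRNAs held 21.2% ± 19.8 in sham and 6.63% ± 6.11 in TBI rats. A smaller liver share by itself makes the other shares larger, so the 2 list shares cannot be read as levels. 0 of 18 passed the edgeR test in TBI against sham over all sites, and 6 had an unadjusted p below 0.05, as did 83 of all 751. Their log2 differences were above 0 for 17 of 18 with a median of 0.35, beside 0.03 for all 751 miRNAs. The 5 with the largest share were miR-16-5p (16.8% of counts), miR-92a-3p (2.01%), miR-25-3p (1.40%), miR-93-5p (0.738%) and miR-425-5p (0.366%), with log2 differences of 0.35, 0.51, 0.52, 0.43 and 0.53.

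By site the list had its highest estimates at UCLA. At UCLA all 18 estimates were above 0 with a median of 0.78 (0.02 for all miRNAs), and edgeR called 0 of them, with 10 at an unadjusted p below 0.05, as were 85 of all 751. At Monash the median was −0.06 (0.05 for all), and edgeR called 0, with 3 at an unadjusted p below 0.05, as were 56 of 751. At UEF the median was 0.33 (0.01 for all), with 3 at an unadjusted edgeR p below 0.05, as were 119 of 751, and the 1 call was downward: miR-22-3p fell by 1.29 on the log2 scale (SE 0.31, edgeR adjusted p = 0.0119), at the site where miR-486 rose. miR-22-3p was likewise the list member whose rho with miR-486 was lowest, at −0.31. In bulk plasma, more red cells broken open, more of each miRNA per red cell and a changed share of other sources cannot be told apart.

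Of the members, miR-451-5p had the highest median rho with the list. Over the 18, rho had a median of 0.63 and ran from −0.17 with miR-106b-5p to 0.94 with miR-25-3p, and 11 were above 0.5, as were 94 of all 750 miRNAs (12.5%). For miR-144-5p the median was 0.59 (12 above 0.5, of 94 over all, 12.5%), for miR-144-3p 0.49 (8, of 70, 9.33%) and for miR-486 0.43 (6, of 36, 4.8%). For miR-451-3p the median was 0.10 and none was above 0.5. High values were not particular to the red cell list. Over the platelet and white cell list rho ran from −0.0030 to 0.722 for miR-451-5p and from −0.0719 to 0.807 for miR-144-5p. It ran from 0.0123 to 0.726 for miR-144-3p and from −0.0222 to 0.430 for miR-486. Over the brain list rho with miR-451-5p ran from −0.0911 to 0.741.

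**Figure D5:**
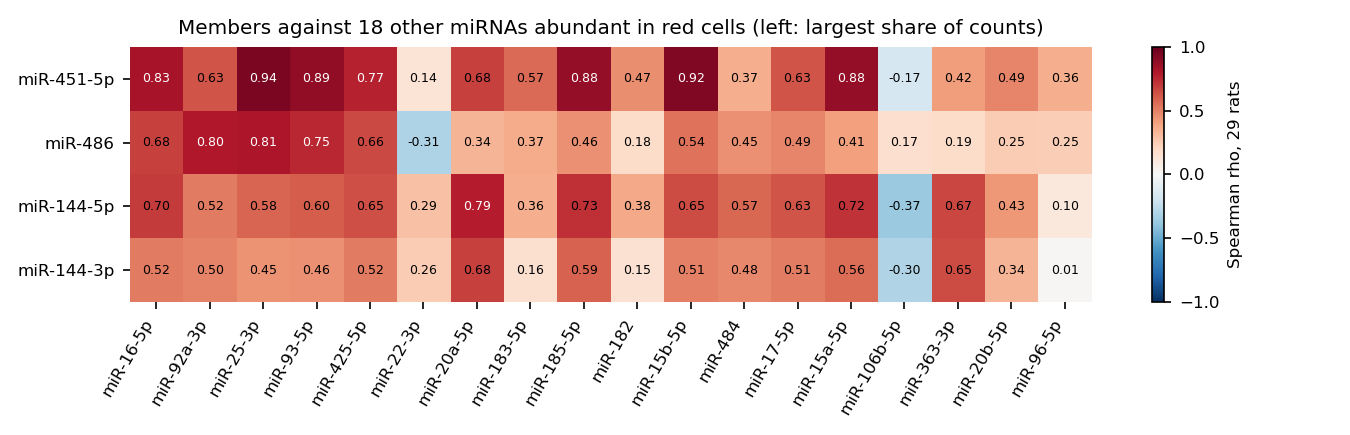
Spearman rho over 29 rats of 4 members (rows) with 18 other miRNAs abundant in red cells (columns, from the largest share of counts at the left). miR-451-5p has the darkest cells, up to 0.94 with miR-25-3p, and miR-106b-5p stands apart with rho of −0.17, 0.17, −0.37 and −0.30 down the column.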

How the data were processed

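Plasma miRNA counts from 29 rats were analysed, with group and site taken from the labels. The authors trimmed reads with cutadapt, aligned them to Rnor_6.0 with bowtie and annotated them with miRBase. The deposited values are raw whole-number counts. The reads carried molecular identifiers, but whether reads of one molecule were merged is not given in the sources used here. Totals ranged from 1162307 to 5223469 counts. No 2 libraries agreed within sampling noise (lowest chi-square per degree of freedom 75.0).

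Counts of 751 miRNAs that passed filterByExpr (minimum count 10) were TMM-scaled and put through the quasi-likelihood F test of edgeR 4.0.16 in R 4.3.3, with limma 3.58.1 loaded and with site and condition in the model, or site by injury for the site values. Adjustment was Benjamini-Hochberg over all 751, with a threshold of 0.05. Log2 CPM used a prior count of 2. DESeq2 1.42.0, other scalings, filters and models, and each rat left out in turn were alternatives. Ratios and correlations were tested by permutation, which took no account of site where sites were pooled. It was exact for ratios within a site and for correlations at Monash and UCLA, and used 100000 resamples elsewhere. This used scipy 1.17.1 under Python 3.11.15, and pandas 2.3.3, matplotlib 3.10.9 and numpy 2.4.6 handled tables and figures. The fits were tested on simulated data. Rat numbers were checked as pairs: rats of the same number correlated no better (median r −0.00471) than others (0.00314), so no pairing was used. Whether rats shared a litter was not stated.

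The members and lists were chosen with earlier results of these data known. miRNAs named were the members, the 5 most like each by rho, the 5 red cell miRNAs with the largest share, and miR-23a-3p. Those outside this rule, the miR-451-3p ratios and correlations, the adjustment of ratios over 676 miRNAs in place of 4, and the comparison of TBI+ with TBI− within sites were added after values were seen.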

Additional observations from a re-analysis of the deposited data

Results flagged for a closer look

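The highest or lowest rat stood apart by Dixon's criterion in 10 of 55 groups of 4 to 10 rats. Independent, normally distributed values would give about 1 in 20, or 2.75. As the groups share rats and CPM were not logged, that rate cannot be held against the 10 flags. 3 rats accounted for them, and no cause was tested. Monash sham 2 had 4532 CPM of miR-451-5p, apart from the next sham rat (1426) and the next Monash rat (1887), and was highest among sham rats for miR-144-3p (128 CPM, next 65.0) and miR-144-5p (260, next 115). UEF TBI− 2 had 7494 CPM of miR-451-5p, above the next TBI− rat (3784), the next UEF TBI rat (3235) and the next UEF TBI− rat (1894), and 285 CPM of miR-144-5p, above the next UEF TBI rat (87.0) and UEF TBI− rat (79.0). UEF TBI+ 4 was the lowest of its 4 for miR-144-5p, at 50.6 CPM (next 84.4). Neither of the high rats stood apart for miR-451-3p or miR-486.

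Both arms of miR-144 were higher in every TBI+ than in every TBI− rat at UCLA and lower in every one at Monash. On the log2 scale the group means differed by 1.54 and −1.64 for miR-144-5p and by 1.09 and −0.82 for miR-144-3p, in 6 and 5 rats. This difference between sites was not tested. The same opposite separation was found for 51 of 751 miRNAs.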

How the results depend on the processing

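The cause of the changes given here was not tested. Over all sites, 9 miRNAs and 0 members were called in TBI against sham. The miRNA count was 25 by DESeq2, 19 with at least 100 counts in every rat (fewer miRNAs tested), 15 without the site term, 0 without the UEF rats, 21 without the Monash rats and 14 without the UCLA rats. The 1 member called was miR-486, by DESeq2 (0.75), at 100 counts (0.69) and without Monash (1.12). miR-451-3p turned to −0.045 without UEF. Leaving out 1 rat gave 1 (without UEF sham 4) to 16 miRNAs (without Monash sham 2), 0 to 2 members, 0.68 to 0.97 for miR-486 and 0.51 to 1.08 for miR-451-5p.

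At UEF the 29 miRNAs became 49 by DESeq2, 48 by library totals alone and 14 to 56 with 1 rat left out (UEF sham 3 and UEF sham 1). Library totals called 3 members and 100 counts called 2. They also moved the median of all miRNAs to 0.43 at UEF, 0.18 at Monash and −0.47 at UCLA. At Monash the 0 miRNAs became 5 by DESeq2 and 0 to 4 with 1 rat left out (4 without Monash TBI− 3). miR-486 there was 0.25 by totals, 0.022 by upper-quartile factors and 0.18 at 100 counts. With 1 rat left out it ran from −0.22 to 0.54, miR-451-5p from −0.91 to 0.65, miR-144-3p from −0.55 to 0.062 and miR-144-5p from −0.81 to 0.035, each highest without Monash sham 2. At UCLA the 2 miRNAs became 7 by DESeq2, 4 with its size factors, 9 by totals, 6 at 100 counts, 4 without miR-122-5p and 1 to 6 with 1 rat left out, and miR-451-3p was −0.13 by totals. For the site by injury term, 8 became 17 by DESeq2, 2 with its size factors, 15 by totals, 5 by upper-quartile factors, 4 without miR-122-5p and 0 (without UEF sham 3) to 10 with 1 rat left out.

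For TBI+ against TBI−, signs turned for miR-451-5p without UEF (0.14), for miR-144-3p (−0.47), miR-144-5p (−0.82) and miR-451-3p (0.021) without UCLA, for miR-144-5p without the site term (−0.057), and for miR-486 by upper-quartile factors (−0.015), at 100 counts (−0.052) and without Monash (−0.036). With 1 rat left out the ranges were −0.32 to 0.25 for miR-451-5p, −0.056 to 0.24 for miR-144-3p, −0.12 to 0.43 for miR-144-5p and −0.094 to 0.14 for miR-486.

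Between sites, 111 miRNAs were called over the 3 sites, 66 in sham and 40 in TBI rats alone. Members numbered 0, or 1 at 100 counts, 2 in sham and 1 in TBI rats alone, and 0 to 1 with 1 rat left out (1 without UEF TBI− 2 or Monash sham 2). UEF against Monash gave 75 miRNAs, then 33 by totals, 46 by upper-quartile factors, 26 at 100 counts, 35 in sham, 0 in TBI rats and 39 to 117 with 1 rat left out, and 1 member in sham rats or without UEF TBI− 2 or Monash TBI+ 1. Signs turned for miR-451-5p (−0.084 by totals, −1.03 in sham), miR-486 (−0.76 in sham) and miR-451-3p (−0.31 in sham), and the ranges were −0.34 to 0.54 for miR-451-5p and −0.022 to 0.32 for miR-486. UEF against UCLA gave 70, then 36 in sham and 40 in TBI rats, with 1 member at 100 counts or without Monash sham 2. miR-144-3p was 0.30 and miR-144-5p 0.060 in sham, and miR-451-5p ran from −0.41 to 0.049. Monash against UCLA gave 41, then 21 in sham, 23 in TBI rats and 25 to 59, with 1 member at 100 counts, in sham, in TBI rats or without Monash sham 2. miR-451-5p was 0.93 and miR-451-3p 0.21 in sham, miR-144-3p −0.057 and miR-144-5p −0.35 in TBI rats, and miR-451-5p ran from −0.64 to 0.049.

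For the ratios to miR-23a-3p with 1 rat left out, miR-144-3p ran from 0.28 to 0.56, miR-144-5p from 0.40 to 0.70 and miR-451-3p from −0.014 to 0.27 over all sites. At UEF miR-451-5p ran from 0.79 to 1.11, miR-144-3p from 0.16 to 1.01, miR-144-5p from 0.53 to 1.10 and miR-451-3p from −0.19 to 0.66, at Monash miR-451-5p from −0.50 to 0.52 and miR-486 from −0.00066 to 0.41, and at UCLA miR-451-5p from 0.88 to 1.27, miR-144-3p from 0.79 to 1.23 and miR-144-5p from 1.13 to 1.38. Against miR-28-3p, miR-451-3p at UCLA was −0.0020. On log2 shares of counts rho was 0.338 for miR-451-5p with miR-144-3p, −0.0251 for miR-144-3p with miR-486, and −0.235, −0.157 and −0.150 for miR-451-3p with miR-451-5p, miR-144-3p and miR-144-5p. On residuals after site and condition the arms of miR-451 had −0.118. With 1 rat left out, rho of miR-144-5p with miR-486 was 0.285 to 0.444 and of miR-486 with miR-451-3p 0.408 to 0.551.

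With the rat number as a replicate block, 5 miRNAs were called in TBI against sham, 0 for the site by injury term, 31 for UEF against Monash and 46 for UEF against UCLA. Under the block miR-486 was 0.79 over all sites and −0.014 in TBI+ against TBI−, and miR-451-5p was 0.043 for UEF against UCLA. Same-numbered rats did not deviate together, and 4 of 29 were closest to a rat of their own number. Groups of 2 to 4 rats per site and the low counts of miR-144 and miR-451-3p limit the site values.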
